A study of Drosophila melanogaster with 3 samples.

Results

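The distal intron summits of long genes are the places, inside the introns of the most extended genes of the fly and far from any start site, where chromatin was recovered with the nuclear receptor Hr4. A summit is the base at which a peak of the ChIP-seq (chromatin immunoprecipitation and sequencing) signal is highest. Members were taken from the reproducible peak list in build dm6 by position only: the summit had to lie over 1 kb from every annotated transcription start site (TSS), in no annotated exon, and within a protein-coding gene with a span of 50 kb or more. This gave 1354 summits of the 8687 on the chromosome arms, or 15.6%, with 241 on 2L, 216 on 2R, 283 on 3L, 315 on 3R, 299 on X and 0 on 4. The whole list held 8693 summits. The samples were 3 biological replicates of whole white prepupae, the stage at which the puparium forms, males and females together, from 1 transgenic line that makes Hr4 with green fluorescent protein (GFP) joined to its C-terminal end. All 3 carried the same fusion, and chromatin was recovered with an antibody against GFP. The labels give an age of 48 days, printed here as labelled. No untagged or input library was analysed here, the peak lists carry no read depth, and with 1 group no conditions were compared. In whole animals, a site bound in few cells and a site bound weakly in many cannot be told apart.

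Hr4 belongs to the orphan nuclear receptors, transcription factors with a zinc-finger DNA-binding domain for which no ligand is established. Its gene is induced by the steroid hormone ecdysone at the end of larval life, and genetic work in the fly places it among the factors that shut down the early ecdysone-induced genes and open the prepupal programme. The related vertebrate receptor GCNF binds a direct repeat of the receptor core site AGGTCA with no base between the copies. Introns of long developmental genes are known in flies to hold many of the enhancers that steer those genes, often far from the start site.

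The sequence under the strongest member summits shows what the class looks like at its high end. Each window runs 50 bp to either side of the summit on the + strand of the Release 6 assembly (dm6), read 5′ to 3′, and the 5 strongest members of arms 2L, 3L, 3R and X follow in order of deposited signal value.
ush, chr2L:481007-481107: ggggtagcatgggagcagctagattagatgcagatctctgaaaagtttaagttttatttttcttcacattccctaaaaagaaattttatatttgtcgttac
Eip75B, chr3L:18009119-18009219: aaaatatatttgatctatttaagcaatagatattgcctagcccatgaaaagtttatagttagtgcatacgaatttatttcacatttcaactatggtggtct
CG32264, chr3L:3785162-3785262: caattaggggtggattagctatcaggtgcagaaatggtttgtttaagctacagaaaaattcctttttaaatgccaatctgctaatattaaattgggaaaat
Snoo, chr2L:7900096-7900196: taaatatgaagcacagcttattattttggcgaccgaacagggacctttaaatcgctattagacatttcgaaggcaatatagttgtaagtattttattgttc
Tlk, chrX:3742181-3742281: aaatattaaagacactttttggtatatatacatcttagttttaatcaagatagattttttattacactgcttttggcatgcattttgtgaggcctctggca
The host genes are ush (u-shaped, a zinc-finger partner of GATA transcription factors), Eip75B (the early ecdysone-induced nuclear receptor E75), CG32264, Snoo (a Ski/Sno family co-repressor in TGF-beta signalling) and Tlk (Tousled-like kinase, which acts in chromatin assembly). None of these 5 windows held the core site AGGTCA or the GATA site TGATAA on either strand, and their GC content was between 28.7% and 33.7%, against 40.2% ± 9.14 (SD over 236531 windows of 101 bp tiled over all distal intron sequence of long genes).

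Among 19 motifs searched on both strands, the GATA site TGATAA exceeded its share in all tiled windows by the most percentage points. GATA-family zinc-finger factors bind this site, which stood in 9.82% of member windows and 6.21% of tiled windows. Tiled windows weighted to the members' GC content held it in 9.05%, and beside those the gaps of GAGAG and of the AP-1 site TGANTCA were wider. The 3 strongest members on the same arms that held the GATA site, in Lmpt, pnt and CG42747, are shown with TGATAA, or its complement TTATCA, in capitals.
Lmpt, chr3L:16872659-16872759: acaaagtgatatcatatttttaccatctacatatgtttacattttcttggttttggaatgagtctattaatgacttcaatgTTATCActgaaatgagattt
pnt, chr3R:23326439-23326539: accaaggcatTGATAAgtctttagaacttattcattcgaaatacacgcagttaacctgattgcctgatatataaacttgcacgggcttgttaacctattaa
CG42747, chr3L:6483009-6483109: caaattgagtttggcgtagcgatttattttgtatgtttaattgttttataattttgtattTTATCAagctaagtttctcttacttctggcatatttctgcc
A scan of all 6-mers, chosen after the values had been seen, put ACAGTG first in its ratio to tiled windows of the same GC content. The 3 strongest members on these arms that held ACAGTG, or its complement CACTGT, lay in CG12535, Eip63E and tai, and capitals mark it.
CG12535, chrX:3433738-3433838: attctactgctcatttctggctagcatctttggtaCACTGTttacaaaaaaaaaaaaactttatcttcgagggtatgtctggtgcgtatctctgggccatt
Eip63E, chr3L:3518013-3518113: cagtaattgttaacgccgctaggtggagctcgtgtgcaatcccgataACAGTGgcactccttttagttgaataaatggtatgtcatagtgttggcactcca
tai, chr2L:9207295-9207395: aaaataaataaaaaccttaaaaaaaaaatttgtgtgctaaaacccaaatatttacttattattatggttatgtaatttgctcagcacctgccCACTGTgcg
Of all members, 1 held the direct repeat of 2 AGGTCA copies without a spacer, a weak summit in pum (rank 8138 of 8693). It is shown because this is the repeat known from the vertebrate relative, with the repeat, read on the other strand, in capitals.
pum, chr3R:9085455-9085555: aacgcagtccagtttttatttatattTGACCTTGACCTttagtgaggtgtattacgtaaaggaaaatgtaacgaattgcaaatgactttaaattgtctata
Its signal value was 94.8, near the floor of the list at 88.0, and its entry stood at the 80.3, 68.5 and 53.2 percentile of replicates 1, 2 and 3.

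The members had lower signal values than the other summits pooled. The signal value, the authors' own measure of peak strength on the pooled reads of all 3 replicates, had a median of 158 over the members, with quartiles at 113 and 258, against a median of 179 over the 7333 other summits. Intergenic distal summits had a lower median still, 154, with 41.5% of them in the stronger 50% of the list, and promoter summits, within 250 bp of a TSS, a higher one at 210. The stronger 50% of the list took in 44.5% of the members, against 51.0% of the other summits, where all summits together stood at 50%. Members, 15.6% of the summits, made up 3 of the 100 strongest summits and 85 of the 1000 strongest. Intergenic distal summits, 16.2%, made up 4 and 84, and promoter summits, 19.9%, made up 55 and 329. The strongest member, in ush, had a signal value of 3372 and stood at rank 3, and the next, in Eip75B, had 1574 at rank 63. Peak widths did not separate the classes, with a median of 424 bp in each.

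In spite of their lower signal, the members were found in the replicates' relaxed lists as often as other summits or more often. A member counted as found when an entry of the replicate's relaxed list, which mixes peaks with background, had its summit within 250 bp. The same entry could count for 2 neighbouring members. Replicate 1 held 1320 of 1354 members, or 97.5%, replicate 2 held 1348, or 99.6%, and replicate 3 held 1353, or 99.9%, while other summits were found at 90.7%, 99.1% and 99.4%. The share was higher for the members in each of the 3 replicates, and the gap was mostly that of replicate 1. Over replicates the shares averaged 99.0% ± 1.31 for members and 96.4% ± 4.95 for other summits (SD, n = 3), a difference of 2.61 percentage points ± 3.64. The exact sign-flip permutation test, two-sided over 3 replicates, gave p = 0.25, the smallest that 3 replicates allow, so no comparison between replicates here can pass 0.05 (adjusted p = 0.325 over 13 comparisons). Without replicate 1 the difference was 0.505 percentage points. In only the highest entries of each replicate's list, 69.4% of members were found in all 3. Other summits were not counted there, so the comparison holds for the relaxed lists only.

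All 3 replicates held 1314 members, 97.0% (95% Wilson interval 96.0 to 97.8, for counting error only), where all summits on the arms stood at 90.5% and those other than members at 89.3%. Promoter summits, which were the strongest, had the lowest share of the classes at 80.1%. Distal summits of introns in shorter genes stood at 92.2% and intergenic distal summits at 96.9%. On the X chromosome replicate 1 held a smaller share than on the autosomes in each of the 6 classes, from 64.6% of X promoter summits to 95.1% of X intergenic distal ones. It held 94.0% of the 299 members and 79.8% of the other summits. On the autosomes it held 98.5% of members and 92.9% of other summits. The part of the X in these differences was not tested beyond these values. Of the 40 members that a replicate lacked, 34 were missing in replicate 1 alone, 18 of them on X, and 5 in replicate 2 alone. Their median signal value was 118, against 162 for members found in all 3.

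Within each replicate's own ranking the members sat lower than other summits. The percentile of an entry is 100 at the top of a replicate's 30000 entries. The median percentile of found members was 84.9, 83.5 and 83.9 in replicates 1, 2 and 3, against 87.4, 86.1 and 86.0 for other summits. The difference was -2.39 ± 0.239 (SD, n = 3) and was negative in 3 of 3 replicates (exact sign-flip permutation test, two-sided p = 0.25, adjusted p = 0.325). Against the distal intron summits of shorter genes it was -1.99 ± 0.281, with the same p and the same sign in every replicate.

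**Figure D1:**
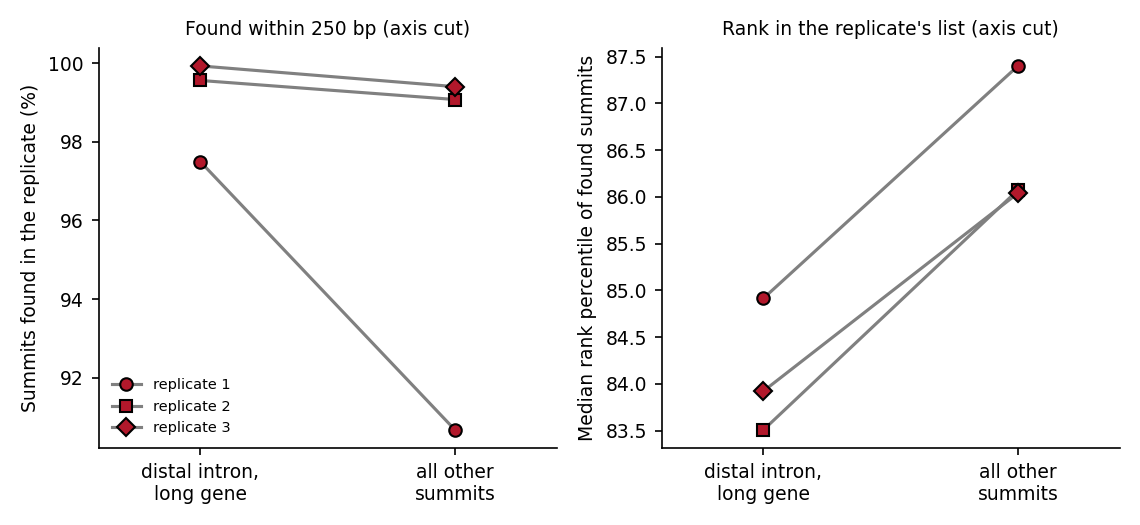
Left, the percentage of summits found within 250 bp in each replicate; right, the median rank percentile of the found summits in that replicate's list, for distal intron summits of long genes and for all other summits. Lines join the 2 values of a replicate, and both vertical axes start above 0. Members are found more often in the relaxed lists of all 3 replicates, most of all in replicate 1 with 97.5% against 90.7%, and rank lower in all 3.

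The introns of long genes carried fewer summits per length than those of shorter genes. Distal intron sequence of long genes that could hold a member covers 23.9 Mb, 17.9% of the arms, and held 56.7 members per Mb. The same kind of sequence in genes under 50 kb covers 23.4 Mb and held 93.7 summits per Mb, intergenic sequence over 1 kb from a TSS held 40.6, and promoters held 173. All arms together held 64.9 summits per Mb.

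When each replicate's own highest entries were classified in place of the pooled list, the density was 58.0, 51.7 and 53.0 per Mb in replicates 1, 2 and 3. Shorter genes gave 91.6, 91.6 and 93.7 per Mb, and no replicate of one kind of intron overlapped any of the other. The difference between long and shorter genes was -38.1 ± 3.88 per Mb (SD, n = 3), lower in 3 of 3 replicates. Against intergenic sequence, at 46.5, 36.1 and 36.3 per Mb, the difference was 14.6 ± 2.75 per Mb, higher in 3 of 3. Both had an exact permutation p of 0.25, adjusted 0.325. Over the genes that held at least 1 reproducible summit of any kind, a restriction that uses the outcome and was added after the values had been seen, the densities were 92.0 per Mb in 14.7 Mb of long genes and 164 per Mb in 13.4 Mb of shorter genes.

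Members thinned out with distance from the nearest start site. From 1 to 2 kb away there were 98.3 members per Mb, from 2 to 5 kb 79.3, from 5 to 10 kb 65.7, from 10 to 20 kb 68.0 and from 20 to 50 kb 39.8. Beyond 50 kb there were 5 members in 3.63 Mb, or 1.38 per Mb. The median distance was 7376 bp and the farthest member lay 57262 bp from a TSS. In the replicates' own lists the density at 1 to 2 kb was 106, 91.9 and 96.6 per Mb in replicates 1, 2 and 3, against 41.3, 35.1 and 35.5 at 20 to 50 kb. The near values exceeded the far ones in 3 of 3 replicates, by 60.8 ± 3.88 per Mb (SD, n = 3; exact permutation p = 0.25, adjusted p = 0.325). Signal values differed less, with a median of 178 at 1 to 2 kb and 163 at 20 to 50 kb.

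The decrease with distance was shallower over long genes that held at least 1 summit. Their densities were 121, 99.6, 85.6, 95.2, 73.2 and 29.8 per Mb over the same 6 distances. Of the 3.63 Mb beyond 50 kb, only 0.168 Mb lies in such genes. Much of the most distant intron sequence is therefore in genes without any summit, described with the host genes below.

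**Figure D2:**
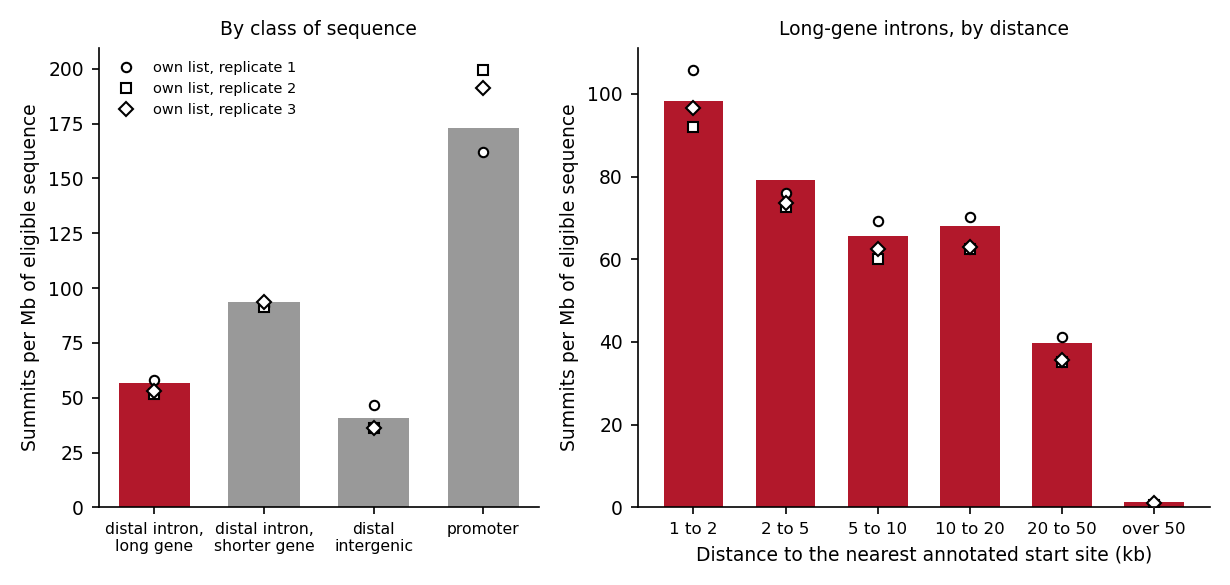
Summits per Mb of sequence that could hold one, by class (left) and, for introns of long genes, by distance to the nearest TSS (right). Bars are the reproducible list and points are the highest entries of each replicate's own list; long-gene introns, at 56.7 per Mb, stand above distal intergenic sequence at 40.6 and below shorter-gene introns at 93.7 and promoters at 173, and the long-gene values fall with distance from 98.3 to 1.38 per Mb.

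First and longest introns held a larger share of the members than of the sequence. An intron that comes first in at least 1 transcript held 666 members, 49.2% (95% Wilson interval 46.5 to 51.8), while such introns make up 31.7% of the eligible sequence. The shares from the replicates' own lists were 47.5%, 49.8% and 48.3%, all above 31.7%. The longest intron of the host held 895 members, 66.1% (63.5 to 68.6), against 50.9% of the eligible sequence. In density this came to 87.8 members per Mb in first introns and 42.2 elsewhere, and to 73.6 per Mb in the longest intron and 39.1 elsewhere. Over the genes that held at least 1 member, a restriction added after the values had been seen, first introns made up 40.6% of the eligible sequence and longest introns 59.0%. The densities there were 116 members per Mb in first introns against 82.2 elsewhere, and 108 per Mb in the longest intron against 79.4 elsewhere, so the gap was narrower. First introns also start near a TSS, and the part of that distance in the share was not tested.

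Neighbouring members often lay within a few kb of each other, and their spacing was not set beside that of other classes. Of 1169 gaps between successive members of a gene, the median was 3775 bp, and 31.8% were at most 2000 bp. The longest run with gaps of that size had 7 members, in cic (capicua, an HMG-box repressor downstream of receptor tyrosine kinases), followed by 6 in shn and 5 in osp. Some gaps were below the median peak width of 424 bp, so neighbouring members need not be separate sites. Only 1 of the 1354 summits fell in an annotated transposable element, whereas such elements make up 7.95% of the eligible sequence. The labels do not say how reads that map to several places were treated, and the part of mapping in this share was not tested.

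The 1354 members were spread over 214 of the 307 long protein-coding genes, or 69.7%. At least 3 members were held by 156 genes, 50.8%, and 10 or more by 53. The median long gene held 3 members, and 29 members lay in a pair of overlapping long genes. Another 34 members, 2.51%, also lay in a shorter gene nested in the long one. The 12 genes with most members held 234 of the 1354 members, or 17.3%. Length alone said little about the number. Across the 307 genes, span and member count had a Spearman's rho of 0.0635, given as a description because the genes share 1 list. Genes of 50 to 75 kb held 8.51 members per 100 kb of eligible sequence, those of 75 to 100 kb 7.93, those of 100 to 150 kb 5.02 and those above 150 kb 1.64. The group above 150 kb includes Myo81F and Pzl on 3R, the longest genes, which hold no member. The eligible sequence of 3R was 6.61 Mb with them and 3.96 Mb without.

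**Figure D3:**
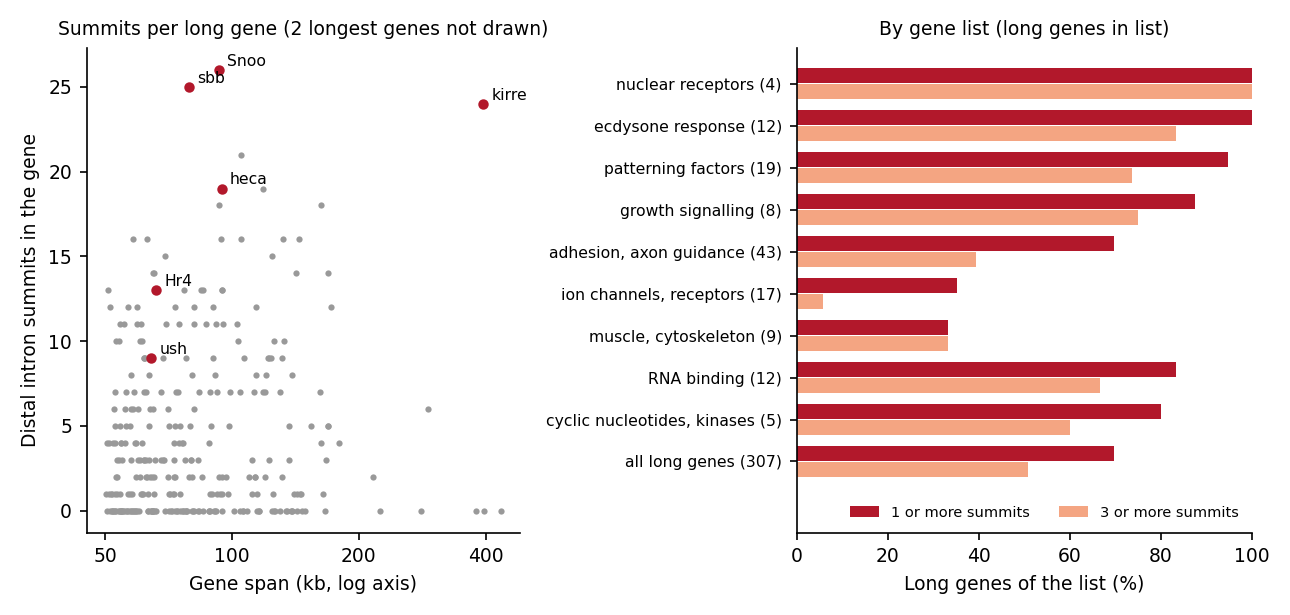
Left, the number of distal intron summits in each long gene against its span in kb (log axis), with 6 genes named and the 2 longest genes, both with 0 summits, left out; right, the percentage of the long genes of each list with 1 or more and 3 or more such summits, with the number of long genes in brackets. Genes with 0 summits occur from the shortest to the longest spans drawn, the highest count is 26 in Snoo at 93.0 kb, and the lists run from 100% of nuclear receptors to 33.3% of muscle and cytoskeleton genes with 1 or more.

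Snoo held more members than any other gene, 26 in 93.0 kb of 2L. Their signal values ran from 88.5 through a median of 215 to 1199, and 4 exceeded 500. All 26 were found in every replicate, and the replicates' own highest entries placed 26, 26 and 22 summits there in replicates 1, 2 and 3. They lay between 10.1 and 86.7 kb from the 5′ end of the gene, and its strongest summit, at chr2L:7899978-7900327, stood at the 99.6, 99.6 and 99.5 percentile of replicates 1, 2 and 3. The counts thus differed little between replicates. Snoo members at chr2L positions 7926354 and 7926556 stood at the same percentiles, 85.0, 86.0 and 51.0 in replicates 1, 2 and 3. The 26 members therefore need not be separate sites.

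kirre (the immunoglobulin-family adhesion protein of muscle founder cells, needed for myoblast fusion) held 24 members over 394 kb of X. They formed 2 groups, with 4 within the first 47.1 kb and 20 between 220.7 and 368.7 kb, and 174 kb without a member between them. Signal values ran from 88.9 through 243 to 720. Each replicate held all 24, and the replicates' own lists placed 26, 26 and 25 there. At 7.58 members per 100 kb of eligible sequence, kirre was sparser than Snoo, at 31.5.

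The other genes with most members were of mixed function. sbb, also called brakeless, a co-repressor, held 25 members, with a strongest signal value of 1062. CG43658 held 21, none above a signal value of 366. heca (headcase, a regulator of imaginal cells) and mtgo each held 19. Tet, a dioxygenase that oxidises methylated bases, and SKIP each held 18. The receptor fz (Frizzled, for Wnt signalling and planar cell polarity), the zinc-finger factor shn (schnurri, of the Dpp response), the mesodermal factor twi (twist) and the homeodomain factor hth (homothorax) each held 16. pyd and mamo also held 16 and stood behind these only by the signal value of their strongest member. Of the 14 genes with 16 or more, 11 had every member found in all 3 replicates, CG43658 and shn lacked 1 each and mamo, with 14 of 16 found, lacked 2.

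One summit could dominate a gene. In ush the strongest of 9 members had a signal value of 3372, the next 304, and the median was 179. That summit, at chr2L:480858-481336, lay 1369 bp from the nearest TSS and close to the top of each list, at the 99.9933, 99.9967 and 99.99 percentile of replicates 1, 2 and 3. In CG32264 the strongest of 11 had 1445 and the next 397, and in Tlk the strongest of 11 had 1181 and the next 685. mam (mastermind, the Notch co-activator) held 15 members with 1180 at the top and 522 next.

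Every long gene of the nuclear receptor family held members. Of 21 listed receptors, 4 span 50 kb or more, and all 4 held at least 3, against 50.8% of all long genes. The median was 12.5 members, against 3 for all long genes. Their combined density was 19.4 per 100 kb of eligible sequence, against 5.65 over all long genes. The lists of genes used here were drawn up with earlier results of these data known, and genes can stand in more than 1 list.

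Hr4 itself carried 13 members in 66.0 kb of X. Their signal values ran from 118 through a median of 381 to 1117, the highest median of the 4 receptors, and 5 exceeded 500. The 2 strongest, 1117 and 1091, lay 5.82 and 9.97 kb from the 5′ end of the gene. The replicates' own lists placed 12, 15 and 13 summits in the gene. Replicate 1 found 12 of the 13 and replicates 2 and 3 all 13.

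Eip75B held 12 members in 114 kb of 3L, with signal values from 93.5 through 229 to 1574. A stretch of 35.9 kb without a member separated 2 near the 5′ end from 10 farther in, and the 4 above 500 were all in the second group. Each replicate found all 12, and their own lists placed 12, 13 and 13 there. ftz-f1, whose receptor makes prepupal tissues competent to respond to the next ecdysone pulse, also held 13, but its values were lower, from 88.6 through 117 to 392. Its own-list counts were 7, 11 and 10. EcR, the ecdysone receptor, held 6, with 599 at the top and 148 next, and own-list counts of 8, 9 and 5.

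**Figure D4:**
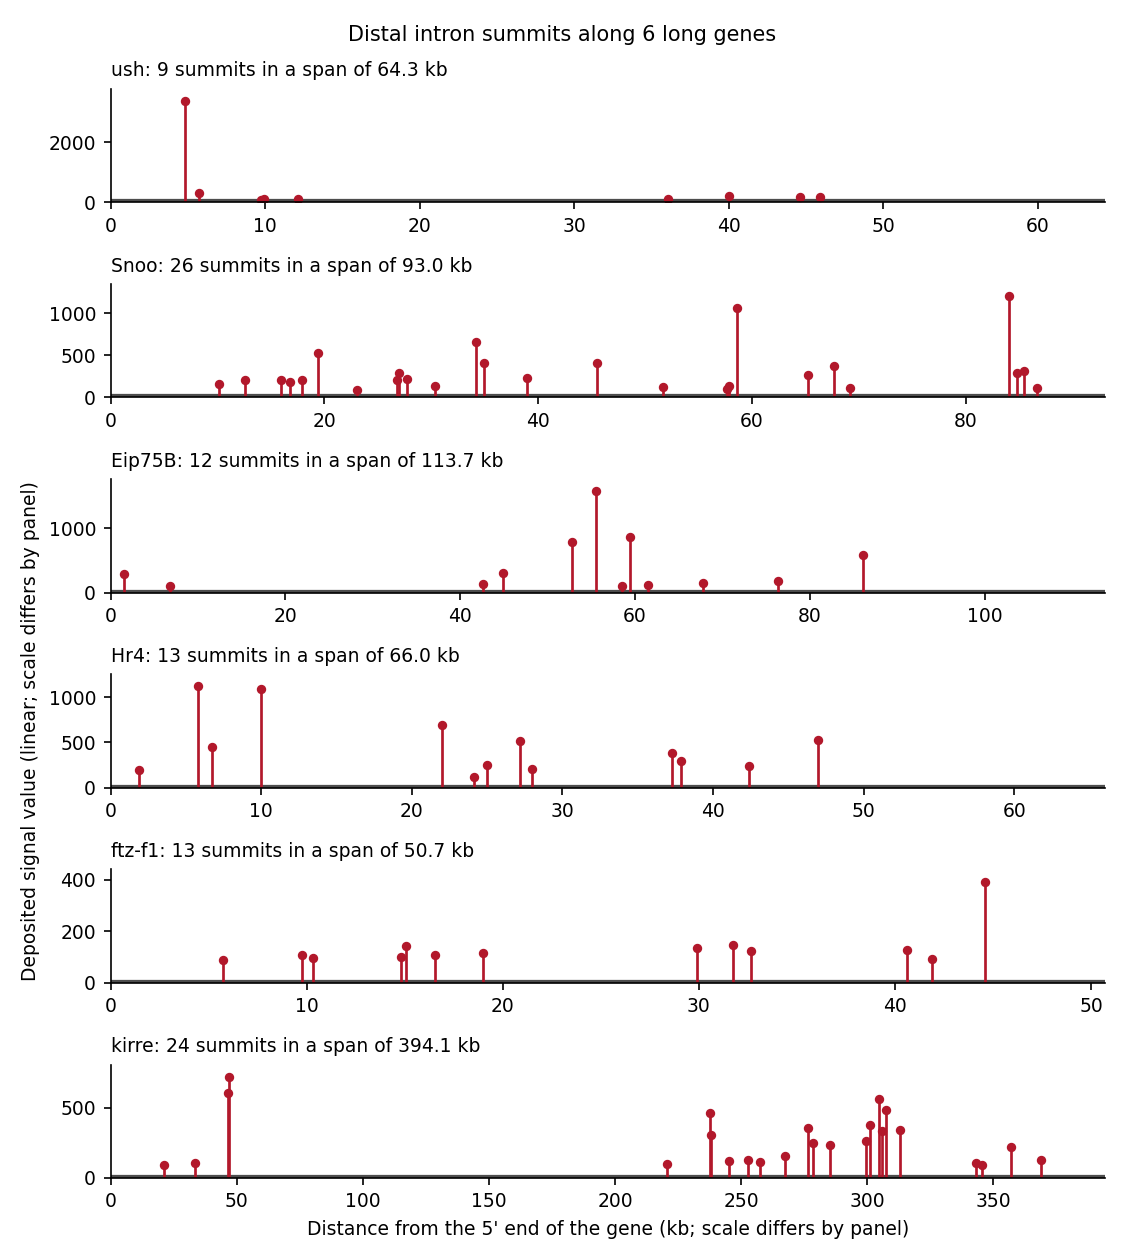
Deposited signal value (vertical axes, linear, scaled per panel) of each distal intron summit against its distance in kb from the 5′ end of the gene (horizontal axes, scaled per panel) in ush, Snoo, Eip75B, Hr4, ftz-f1 and kirre. A single summit of 3372 towers over ush, Snoo has 26 summits along its length, and 174 kb of kirre has none.

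The wider list of ecdysone response and timing genes has 12 long genes of 25 matched, and 12 of 12 held a member, against 69.7% of all long genes. At least 3 were held by 10 of the 12, and the median was 7. Besides the receptors these were Eip63E, an ecdysone-induced cyclin-dependent kinase, with 13 and Eip74EF, an ETS-domain factor of the early puffs, with 11. Smr, a co-repressor of nuclear receptors, and tai, the taiman co-activator of the ecdysone receptor, held 7 each. Eip93F, a helix-turn-helix factor of later stages, and Syp, an RNA-binding protein of temporal patterning, held 3 each.

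The early gene br (broad, the zinc-finger factors of the larval to pupal transition) stood at the low end with 1 member in 89.7 kb. Its signal value was 93.3, at rank 8232 of the list in which the lowest value was 88.0. The own lists of replicates 1, 2 and 3 placed 1, 0 and 1 summit there. chinmo, a factor of larval identity, also held 1, with a signal value of 99.1. Eip74EF differed more between replicates than most: replicate 1 found 8 of its 11 members and replicates 2 and 3 all 11, and the own-list counts were 6, 11 and 11.

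Transcription factors of patterning and cell identity followed, with a member in 18 of 19 long genes (94.7%), 3 or more in 14 and a median of 7. shn, hth and mamo led them with 16 each. Of the long Hox genes in the list, Antp held 11 and Ubx held 0, with 2, 2 and 0 summits of Ubx in the own lists of replicates 1, 2 and 3. Of the 11 in Antp, 9 also lay in the overlapping gene CG46458. In growth and developmental signalling 7 of 8 long genes held a member and 6 held 3 or more. The Wnt receptors fz, with 16, and fz2, with 13, came first. RNA-binding genes had 10 of 12 with a member, led by heph (hephaestus, the polypyrimidine-tract-binding protein) with 14 and pum (Pumilio, a translational repressor) with 12. The list of cyclic nucleotide and kinase signalling had 4 of 5, with Pde11 at 6 and rg at 5. CG15465 has the same span as rg, so these 5 cannot be assigned to rg alone.

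The lists of ion channels and neurotransmitter receptors and of muscle and cytoskeleton stood at the other end. Of 17 long genes for ion channels and neurotransmitter receptors, 6 held a member, or 35.3%, against 69.7% of all long genes, and 1 held 3 or more. The list's 17 genes held 10 members together, 1.08 per 100 kb of eligible sequence, with RYa-R at 4 and nAChRalpha6 at 2. Of 9 listed long genes of muscle and cytoskeleton, 3 held a member. shot, a spectraplakin that links actin and microtubules, held 9, and Zasp52, a Z-disc protein, held 4. Some of the Zasp52 members also lay in the overlapping gene tun. kirre, with 24 members, stood in the adhesion list, so these shares hold for the listed genes only. Cell adhesion and axon guidance had 30 of 43 long genes with a member, or 69.8%, the share of all long genes, but 17 with 3 or more, or 39.5%.

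Counts from the replicates' own lists varied most for adhesion and axon guidance genes, with a member in 34, 24 and 27 of 43 in replicates 1, 2 and 3, where all long genes stood at 227, 199 and 204 of 307. Ecdysone response genes with a member numbered 11, 11 and 12 of 12. Ion channel genes numbered 8, 5 and 5 of 17, and patterning factors 18, 19 and 17 of 19. Muscle genes numbered 4, 3 and 3 of 9 and nuclear receptors 4, 4 and 4 of 4. The median span was 63.3 kb for ion channel genes and 73.6 kb for nuclear receptors, against 74.97 kb for all long genes. These are counts beside the background share, and no list was tested against the others.

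No member lay in 93 long genes, and 83 of these held no reproducible summit of any class. Of the 93, 80 had an entry of the pooled relaxed list at such a place and 13 had none. The longest genes belonged here. Myo81F, a myosin gene, spans 1966 kb near the centromere of 3R and had no such entry in the relaxed list either. Pzl, a Piezo-like channel gene, spans 709 kb and had none, and lovit spans 434 kb and had 1. Read coverage was not analysed here, so absence of a summit and lack of mappable reads cannot be told apart.

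Summits just inside and just outside the limits of the rule had overlapping signal values. The 3 members nearest to the 1 kb limit lay 1003 and 1012 bp from a TSS in CG1677 and 1012 bp in Svil, with signal values of 376, 262 and 198. The 3 summits just outside lay 999 bp away in Svil, 986 in sick and 984 in tai, with 235, 201 and 118. At the span limit, Sytbeta (50.3 kb) held 1 member with a signal value of 89.9, and the 2 nearest members in ab (50.4 kb) had 350 and 297. NetA, at 49.9 kb, held the 3 summits just outside, with 243, 127 and 121.

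Members lay in narrow AT-rich troughs. GC content averaged 30.9% ± 6.65 (SD over 1354 members) in the 101 bp at the summit, against 43.0% and 42.5% in windows centred 500 bp to the left and right. Of the members, 1033, or 76.3%, were below both of their own flanks. In windows of the fine profile the mean was 30.3% at the summit, reached 45.8% at 250 bp to the left and 46.2% to the right, and came back to 40.2% and 40.1% at 1000 bp. The summits were therefore flanked by shoulders above the GC content of long-gene introns at large, which was 40.2%.

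This profile was not particular to long genes. Summits in introns of shorter genes had 31.2% GC at the summit and intergenic ones 30.7%. Promoter summits had 32.7%, and their profile was broader, with 42.2% at 250 bp to the left, 45.3% at 500 bp and 43.9% at 1000 bp. In the replicates' own lists members averaged 32.0%, 31.0% and 31.4% GC, against 32.7%, 31.8% and 32.4% for other summits. The difference of -0.806 percentage points ± 0.118 (SD, n = 3) was negative in 3 of 3 replicates (exact permutation p = 0.25, adjusted p = 0.325). Against introns of shorter genes it was -0.126 ± 0.127, negative in 2 of 3 replicates (exact permutation p = 0.5, adjusted p = 0.542).

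The receptor core site AGGTCA was no more frequent at members than in introns of the same composition. It stood in 28 windows, 2.07% (95% Wilson interval 1.43 to 2.97), against 1.75% of other summits, 2.57% of the tiled windows and 2.03% of tiled windows weighted to the members' GC content. The windows 500 bp to the left and right of the members held it in 1.85% and 2.51%. In the replicates' own lists the share was 1.88%, 1.94% and 1.90% at members, against 1.86%, 1.88% and 1.71% at other summits, a difference of 0.0855 percentage points ± 0.0869 (exact permutation p = 0.25, adjusted p = 0.325). The direct repeat without a spacer stood in 1 member and in 0 of 7333 other summits. The palindrome of receptor sites with 1 base between them, the type of the ecdysone response element, stood in 0 members, which allows a share of up to 0.283% by the 95% Wilson interval. In its exact letters it also stood in 0 other summits and 0 tiled windows, so its absence does not set the members apart.

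GATA sites, the motif shown above in Lmpt, pnt and CG42747, peaked at the summit. TGATAA stood in 133 member windows, 9.82% (8.35 to 11.5), against 5.17% and 5.02% at 500 bp to the left and right. Tiled windows held it in 6.21%, and those weighted to the members' GC content in 9.05%. Other summits held it in 9.97%. By replicate the members' share was 7.72%, 9.71% and 9.08%, against 9.92%, 9.80% and 9.63% for other summits, lower in 3 of 3 replicates, a difference of -0.948 percentage points ± 1.11 (SD, n = 3; exact permutation p = 0.25, adjusted p = 0.325). Runs of 8 A bases were close behind, in 10.7% of members and 7.15% of tiled windows, but in 12.2% of tiled windows of the members' GC content.

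GAGA elements, the GAGAG sites bound by Trl (GAGA factor) and psq, dipped at the summit beside their flanks. They stood in 115 members, 8.49% (7.12 to 10.1), against 14.2% and 14.1% at 500 bp to the left and right and 11.7% of tiled windows. Tiled windows of the members' GC content held them in 7.51%, below the members' share, as was also the case for GATA sites. Repeats of CA showed the same dip, with 1.18% at members against 4.21% and 4.06% in the flanks, but 1.31% in tiled windows of the members' GC content. The AP-1 site TGANTCA, bound by Jra and kay, stood in 3.10% of members, 2.29% and 2.51% of the flanks and 2.14% of tiled windows of the same GC content.

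The 6-mer ACAGTG, shown above in CG12535, Eip63E and tai, had its highest shares beside the summit and not on it. Of 805 6-mers held by 50 or more members, it had the highest ratio to tiled windows of the same GC content, with 6.28% of members (5.11 to 7.70) against 2.82%, or 2.22 times as many. Related letters followed, with CAGTGC in 5.54% against 2.52%. Windows centred 100 bp to the left and right of the summit, which played no part in that choice, held ACAGTG in 12.9% and 12.4% of members. At 300 bp the shares were 3.40% on both sides.

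These paired maxima stood in every replicate and was not limited to long genes. In the replicates' own lists the share of members at 100 bp to the left was 10.5%, 12.6% and 13.5%, and to the right 12.6%, 11.9% and 12.2%, against 6.42%, 6.23% and 5.85% on the summit. Other summits of the reproducible list held it in 11.5% to the left, 5.82% on the summit and 11.7% to the right. On the summit itself the members' share in the replicates' own lists differed from that of other summits by -0.342 percentage points ± 0.502 (SD, n = 3; exact permutation p = 0.5, adjusted p = 0.542). A match to these letters describes the sequence and is not evidence of a factor bound there.

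**Figure D5:**
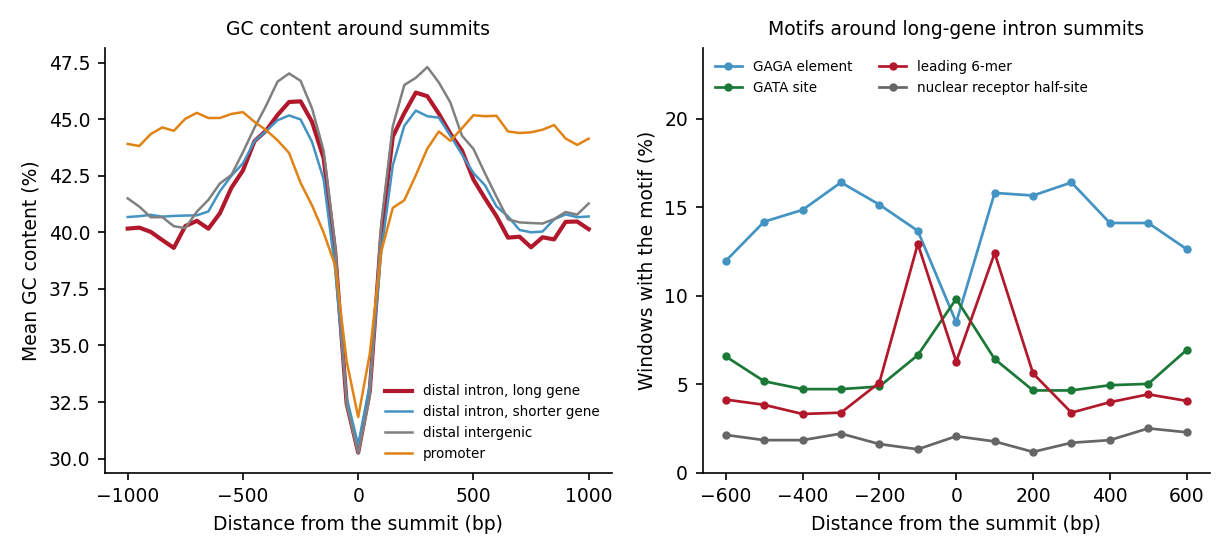
Left, mean GC content (%) by distance from the summit for 4 classes of summits; right, the percentage of windows 101 bp wide with each of 4 motifs by distance from the member summits. The GC content of members falls to 30.3% at the summit between shoulders near 46%, GATA sites peak at the summit at 9.82%, GAGA elements dip to 8.49%, and the leading 6-mer peaks 100 bp to either side at 12.9% and 12.4%.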

How the data were processed

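The authors deposited peak lists in which each peak carries a signal value, a non-negative number on the scale of its own list. Text files that the authors deposited say that every replicate, and the 3 replicates pooled, gave a relaxed list against a control, and that comparing these lists by irreproducible discovery rate (IDR) gave the optimal list. All 8693 optimal peaks were the highest entries of the pooled relaxed list of 30000. Peak caller, aligner and IDR cutoff, not given in the sources used here, bear on which summits are listed. Chromatin was sheared by sonication to 200 to 800 bp, per the labels. Read depth is unknown, so intervals cover counting error only. Lists in build dm3 were not used.

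Summits were placed on the Release 6 sequence (dm6) with Ensembl release 115, in which transposable elements were not counted as transcripts or exons. 6 optimal summits off the 6 arms were left out. A summit was promoter within 250 bp of a TSS, proximal up to 1 kb, and beyond that exonic, intronic or intergenic. Density used all bases that could hold a summit of the class. For values per replicate, the 8693 highest entries of each list were classified in the same way. GC content and 19 motifs were read on both strands within 50 bp of the summit, and the same in 101 bp tiles of the eligible introns, also weighted to the members' GC content in bins of 5%. Differences over the 3 replicates were tested by a two-sided exact sign-flip permutation test with Benjamini-Hochberg adjustment over 13 comparisons, and the calculations were tested on simulated data. No batch is named in the labels. The samples are labelled as biological replicates of 1 line.

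Named genes were the 12 long genes with most members, the hosts of the 8 strongest members, all long genes of the nuclear receptor and ecdysone lists, the 2 genes with most members in each of the other lists (9 lists in all, 8 of 491 listed symbols unmatched), hosts at the limits and the 3 longest genes without a member. Hosts of printed sequences, the longest runs, Ubx, Antp, mamo and pyd were added after their values had been seen. The members, lists, motifs and tests were chosen with earlier results of these data known. The work used Python 3.11.15, numpy 2.4.6, pandas 2.3.3, scipy 1.17.1 and matplotlib 3.10.9.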

Additional observations from a re-analysis of the deposited data

How the results depend on the processing

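Of 110 values recomputed for 11 results under 22 other settings, 87 counted as unchanged, 21 moved and 2 reversed. For the 4 tested differences, unchanged meant only that the sign was kept, whatever the size, as in 44 of 46 values. These included a difference in found share of 0.505 without replicate 1, against 2.61 as reported. The other results had to stay within a set limit. Both reversals concerned the difference in AGGTCA share between members and other summits in the replicates' own lists, which was 0.0855 percentage points as reported, -0.0173 with a span of 30 kb or more and -0.0410 with 100 kb or more. The reported difference is therefore without a settled direction, and the cause was not tested. A span of 30 kb gave 2124 members and a span of 100 kb 401, a fall in number that follows from the construction of the rule. The densities were 64.1 and 32.3 per Mb of the sequence eligible under each limit. The cause of that difference in density was not tested. The stronger 50% of peaks gave 603 members at 25.2 per Mb in 52.8% of long genes, of which 99.5% were found in all 3 replicates, with 30.3% GC, 12.5 percentage points under the flanks (-12.5). Without X the share found in all 3 was 97.9% and the GC difference -12.1. For members found in all 3, summits matched within 100 bp gave 89.2%, and only the highest entries of each replicate's list 69.4%. Other summits were not counted at either setting, so these shares cannot be set against the rest of the list. GC windows of 25 bp and 100 bp to either side gave 30.3% and 33.4%, and AGGTCA shares of 1.03% and 4.06%. Flanks at 250 bp gave a GC difference of -14.8. Transposons counted as transcripts, a setting added after seeing the data, gave 62.4 members per Mb.

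Leaving out each replicate in turn, the share found in all the rest was 97.0% to 99.6%, the difference in found share 0.505 to 3.67, in rank percentile -2.53 to -2.30, in GC content -0.863 to -0.745 and in AGGTCA share 0.0370 to 0.121. The optimal list comes from pooled reads and was not remade. With 1 group there is no replicate block between groups to fit, and the differences were taken within each replicate. Unknown depth limits what the absence of a summit shows.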

Other observations

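Member density also differed between chromosome arms. It was 71.8 members per Mb of eligible sequence on 2L, 61.7 on X, 57.1 on 3L, 52.5 on 2R and 47.7 on 3R. Myo81F and Pzl, which hold no summit, lie on 3R, and without these 2 genes the value of 3R was 79.6, the highest of the arms. Over genes with at least 1 reproducible summit it was 117 on 2R, 101 on 3R, 91.3 on 3L, 90.6 on 2L and 75.2 on X. The order of the arms therefore depends on which genes are counted. The fourth chromosome had 0.0223 Mb of such sequence and 0 members.

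Several other sites were more frequent at members than in all tiled windows, but less so, or less frequent, beside tiled windows of the same GC content. The homeodomain site TAATTA stood in 10.4% of member windows, against 7.22% of all tiled windows and 12.1% of tiled windows of the same GC content. The Mef2 site stood in 5.39%, against 2.83% and 5.91%. The forkhead site TGTTTAC stood in 2.66%, against 1.92% and 2.31%. Of the 805 6-mers held by 50 or more members, out of 2080 scanned, TGACAA had the lowest ratio to windows of the same GC content, with 3.91% of members against 6.75%, or 0.579 times as many. The DRE, the TATCGATA element of many housekeeping promoters, stood in 0.222% of members, against 0.182% of distal intron summits of shorter genes and 0.750% of all other summits, promoters included. In the replicates' own lists the DRE stood in 0.0722%, 0.243% and 0.0790% of members, against 0.766%, 0.605% and 0.863% of all other summits, lower in each of the 3 replicates. That difference was not among the comparisons tested.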
